A study of Mus musculus with 42 samples.

Results

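The secreted Wnt proteins, their cell surface receptors and the secreted proteins that block or enhance them were followed in cultured synovial fibroblasts, which make up much of the lining of joints. Members were taken by gene symbol alone: every Wnt, Fzd, Sfrp, Dkk and Rspo gene, with Wif1, Frzb, Lrp5, Lrp6, Lgr4, Lgr5, Lgr6 and the feedback gene Axin2. On the arrays, 93 probe sets of 49 genes met this rule, out of 34958 probe sets (18194 genes) listed with 1 gene and 45101 probe sets in all. By role these were 32 probe sets for 19 Wnt ligands, 26 for 10 Frizzled receptors, 3 for 2 Lrp co-receptors, 6 for 3 Lgr receptors, 6 for 4 R-spondins, 12 for 6 antagonists that bind the ligand, 6 for 4 Dickkopf proteins and 2 for Axin2. All 93 entered every test, because no filter on low values was used.

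Wnt ligands are lipid-modified secreted proteins that bind a Frizzled receptor, and together with Lrp5 or Lrp6 this stops the breakdown of beta-catenin, which then acts with TCF and LEF factors on target genes such as Axin2. Wnt5a and Wnt11 are best known for signalling without beta-catenin. The Sfrp proteins, Frzb and Wif1 hold the ligand outside the cell, Dickkopf proteins such as Dkk1 and Dkk2 occupy Lrp5 and Lrp6, and R-spondins act through Lgr receptors to keep Frizzled proteins on the surface. In joints the pathway is known for its part in bone formation and erosion, and Frzb was isolated from cartilage.

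The study holds 42 arrays, 1 per fibroblast culture, in 12 groups, and asks how the cytokine TNFa, bacterial lipopolysaccharide (LPS), the hyaluronan-binding protein TSG-6, hyaluronan (HA) and both together act on wild-type cultures and on cultures lacking TSG-6, which is encoded by Tnfaip6. All cultures came from female BALB/c mice made arthritic by injections of cartilage proteoglycan with the adjuvant dimethyldioctadecyl-ammonium bromide (DDA), had been passaged up to 6 times, and were kept without serum overnight before a treatment of 12 h. The 15 wild-type arrays were 5 untreated cultures and 2 for each treatment, which was TNFa (5 ng/ml), LPS (200 ng/ml), TSG-6 (120 ug/ml), HA (24 ug/ml) or TSG-6 with HA. The 27 arrays labelled TSG-6 knockout comprised 8 untreated ones, 3 given TSG-6 and 4 for every other treatment. The labels call the arrays biological replicates but do not say that each culture came from its own mouse, so p-values measure only the spread between these cultures. Values are log2 differences from each probe set's median over the 42 arrays (1 unit is 2-fold), so a value says how an array stands to the others and gives no absolute level.

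Several facts of the arrays bear on what follows. The level of Tnfaip6 itself was no lower in untreated cultures labelled knockout (difference 0.26 ± 0.15 SE, adjusted p = 0.229 in limma), and since the sources used here do not say which part of the gene was disrupted, this does not check the labels. Of 13 endothelial marker genes, 12 were lower in the knockout-labelled than in the wild-type untreated cultures, with a median difference of -4.09. The mean of that list lay between 3.63 and 3.85 on the 5 wild-type untreated arrays and between -0.98 and 0.21 on the 8 knockout-labelled ones. Of 12 fibroblast marker genes, 6 were higher and 3 lower, and 4 of 7 cartilage genes were higher. A gene counted if any of its probe sets passed an adjusted p of 0.05 in limma. Over all probe sets 17.9% were higher and 15.8% lower by that threshold. Each genotype also falls into a pair of culture sets, a and b, that the labels do not name (8 and 7 wild-type, 14 and 13 knockout-labelled arrays), and an 18S ribosomal RNA probe set stood more than 1 above its median on 15 arrays. In such bulk RNA, fewer cells of a type and less RNA per cell cannot be told apart.

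The promoters of 4 members are printed as examples. Frzb was lower and Fzd1 higher in untreated knockout-labelled cultures, in calls that did not hold under every normalization tried. Wnt16 and Wnt6 moved in opposite directions under TNFa in the knockout-labelled cultures. Each run is the 250 bases before the annotated start, 5′ to 3′ on the gene's own strand, from RefSeq on GRCm38.p6. Frzb lies at chr2:80447397-80447646 (minus strand), Fzd1 at chr5:4758217-4758466 (minus strand), Wnt16 at chr6:22287977-22288226 (plus strand) and Wnt6 at chr1:74771642-74771891 (plus strand). Capitals mark the core of the TCF and LEF motif, CTTTGA, read on the opposite strand.
Frzb: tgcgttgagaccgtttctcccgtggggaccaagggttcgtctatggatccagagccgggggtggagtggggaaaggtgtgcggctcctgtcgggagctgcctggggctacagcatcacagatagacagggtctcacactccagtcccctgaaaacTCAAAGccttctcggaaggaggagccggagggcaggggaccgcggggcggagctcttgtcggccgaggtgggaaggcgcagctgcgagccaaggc
Fzd1: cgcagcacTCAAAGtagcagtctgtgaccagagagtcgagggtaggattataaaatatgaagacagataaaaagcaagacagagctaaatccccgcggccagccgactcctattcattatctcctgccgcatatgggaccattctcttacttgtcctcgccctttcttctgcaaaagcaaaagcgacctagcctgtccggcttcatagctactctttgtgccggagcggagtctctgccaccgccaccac
Wnt16: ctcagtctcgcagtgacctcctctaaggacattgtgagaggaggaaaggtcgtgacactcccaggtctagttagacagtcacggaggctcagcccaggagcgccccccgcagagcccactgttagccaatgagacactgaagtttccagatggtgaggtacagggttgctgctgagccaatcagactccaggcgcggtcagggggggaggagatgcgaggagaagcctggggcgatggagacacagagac
Wnt6: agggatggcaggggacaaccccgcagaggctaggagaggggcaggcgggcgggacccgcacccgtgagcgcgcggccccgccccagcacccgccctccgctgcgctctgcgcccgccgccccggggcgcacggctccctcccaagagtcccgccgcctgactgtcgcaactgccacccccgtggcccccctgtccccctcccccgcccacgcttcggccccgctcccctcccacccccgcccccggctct
The core was found 95 bases before the start of Frzb and 242 bases before that of Fzd1, and these letters were not in the windows of Wnt16 and Wnt6. Windows were at hand for 32 of the 49 member genes, and 5 of these (15.6%) held the core on either strand, against 13.8% of all 32851 windows of this length. The 5 were Dkk1, Frzb, Fzd1, Wnt11 and Wnt5b, so the printed Frzb and Fzd1 do not stand for the members. Sfrp2, Fzd4 and Wif1 differed more between the untreated genotypes than Fzd1, and their windows, not printed, held no core. A form of the NF-kB site was in 0 of the 32 and in 0.356% of all windows. The AP-1 form TGANTCA was in 1, Wnt5b, and in 6.75% of all windows. A match is a description of the letters only.

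Across all arrays the members varied more than probe sets at large. Their median SD was 0.271, against 0.215 over the 34958 probe sets, and 27 of 93 (29%) had an SD above 0.5, against 11.1% of all. The widest ranges of the 12 group means belonged to receptors and secreted modulators: the 2 probe sets of the receptor Fzd6 (4.56 and 3.63), the antagonist Sfrp2 (3.95), the R-spondin Rspo2 (3.68), the receptor Fzd4 (3.30) and the antagonist Wif1 (3.12). Fzd6 and Fzd4 were at their highest in the wild-type groups, while Sfrp2, Rspo2 and Wif1 were at their highest in the knockout-labelled groups, an order of the untreated cultures that cyclic loess turned for Fzd4 and Rspo2. In 12 of the 93 member probe sets (12.9%, against 7.62% of all), all 15 wild-type arrays lay on one side of all 27 knockout-labelled arrays, 6 each way.

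Tests were made with limma across all 34958 probe sets, with p-values adjusted after Benjamini and Hochberg separately in 16 comparisons, and a probe set was called below an adjusted p of 0.05. Over these, 30 of the 49 genes were called at least once and 19 never. The 19 were Dkk1, Dkk4, Fzd3, Fzd10, Lgr5, Sfrp4, Rspo1, Rspo4, Wnt1, Wnt2b, Wnt3, Wnt3a, Wnt7a, Wnt7b, Wnt8a, Wnt8b, Wnt9a, Wnt9b and Wnt10b. Over the 10 comparisons of a treatment with untreated cultures there were 31 calls on member probe sets, 27 lower and 4 higher, and 33 genes had none. These comparisons share their untreated arrays within a genotype.

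**Figure D1:**
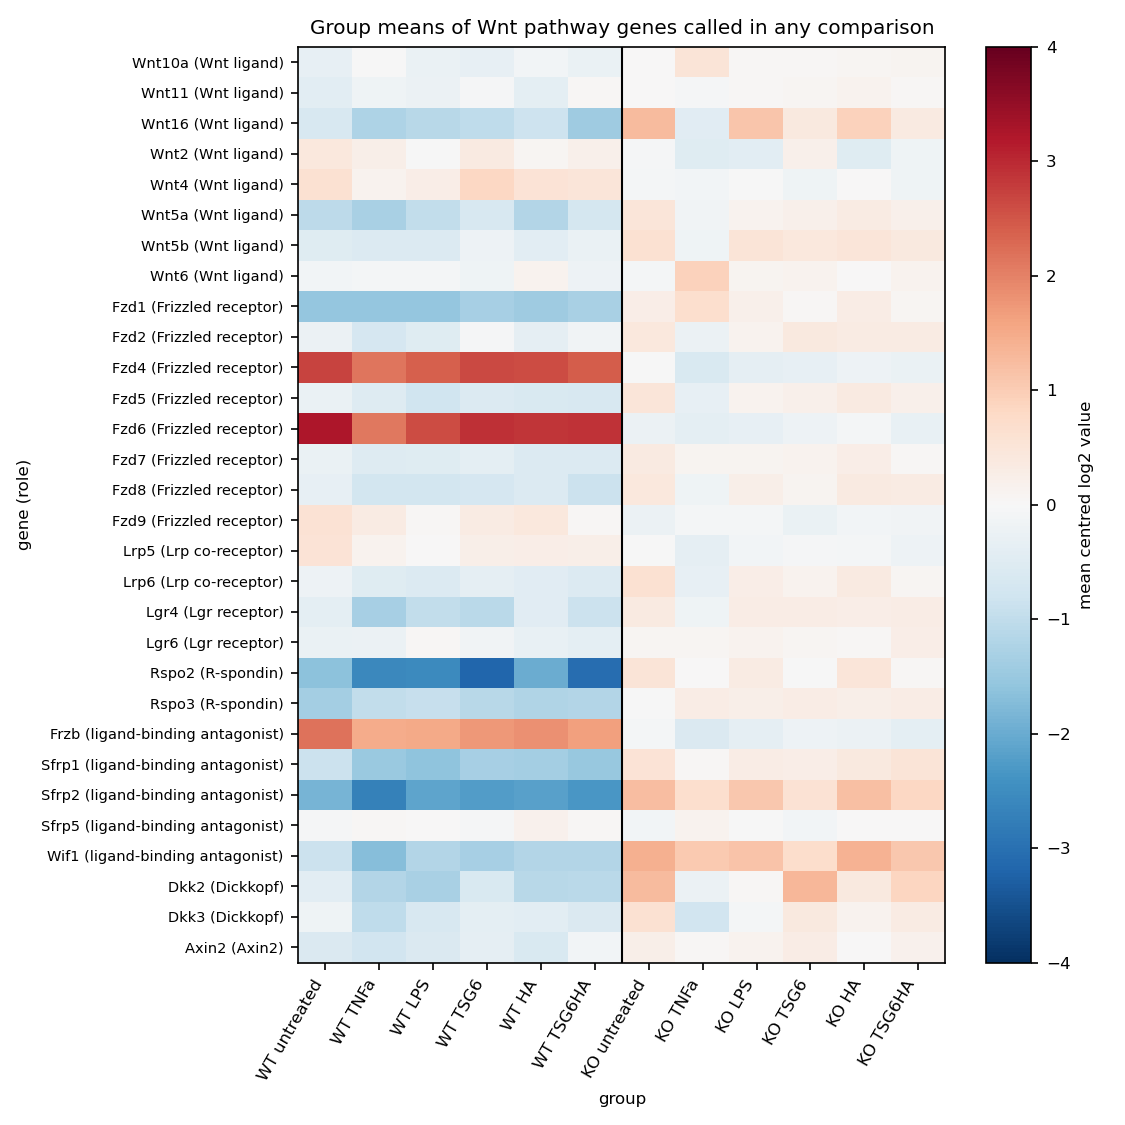
Heat map of the mean centred log2 value in each of the 12 groups (columns, wild-type on the left and knockout-labelled on the right) for the 30 member genes called in at least 1 comparison (each row, 1 probe set), on a colour scale from -4 to 4. Fzd6, Fzd4 and Frzb stand high in every wild-type group, and Sfrp2, Wif1, Rspo2 and Wnt16 stand higher in the knockout-labelled groups, in values as deposited (cyclic loess shrinks the untreated difference of Fzd6 and Frzb and turns that of Fzd4 and Rspo2).

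Untreated knockout-labelled cultures were compared with untreated wild-type cultures to see how the genotypes differ at rest. Fzd6, Fzd4 and Frzb were 4.77-fold to 11.2-fold lower in the knockout-labelled cultures and Sfrp2, Wif1 and Rspo2 were 8.59-fold, 4.87-fold and 4.44-fold higher, all in the values as deposited. When the arrays were renormalized by cyclic loess, Fzd6 (-0.285) stayed called but small, Frzb (-0.267) lost its call, and the signs of Fzd4 and Rspo2 turned, while Sfrp2 (2.43) and Wif1 (3.89) stayed called. That step fits each array against the mean of each probe set over all arrays. In centred values this mean is not signal intensity and can move with the genotype difference itself. Cyclic loess therefore cannot decide the size or direction of these differences. Of the 93 member probe sets 44 were called (47.3%), 32 higher and 12 lower, for 20 genes higher and 7 lower; over all probe sets 33.8% were called, 17.9% higher and 15.8% lower. The median difference was 0.114 over the members and 0.017 over all probe sets. In 32 member probe sets the 5 wild-type and 8 knockout-labelled arrays did not overlap (19.7% of all probe sets did the same). Cyclic loess left 29 member calls, 22 higher and 7 lower, and its value is given for the genes whose call it ended or turned or whose difference it moved by over 1.5 times.

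Among the ligands, 4 genes were higher (Wnt5a, Wnt5b, Wnt16 and Wnt11) and 2 lower (Wnt4 and Wnt2). Wnt5a, a ligand long described in rheumatoid synovium, stood at -1.25, -1.21, -1.08, -0.88 and -0.78 on the 5 wild-type arrays (probe set 1436791_at). On the 8 knockout-labelled arrays its lowest, median and highest values were 0.24, 0.42 and 0.94. The groups did not overlap, and the difference was 1.52 ± 0.11 (SE), or 2.87-fold (adjusted p = 2.28e-13). The other 3 Wnt5a probe sets had the same sign, 2 of them called (1.63 and 1.51) and 1 not (0.23, adjusted p = 0.0501). Cyclic loess kept the call of Wnt5a 1436791_at at a smaller difference of 0.505, kept that of the probe set at 1.63 (1.61), and ended that of 1448818_at (0.188, adjusted p = 0.31).

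Wnt16, a ligand known from joint injury and bone, was at -0.69, -0.65, -0.04, -0.80 and -1.005 on the wild-type arrays. Its knockout-labelled values ran from 0.54 over a median of 1.26 to 2.13, above every wild-type array. The difference of 1.91 ± 0.25 was 3.76-fold (adjusted p = 1.24e-07). Wnt5b, close in sequence to Wnt5a, was higher by 1.10 ± 0.27 (adjusted p = 0.00147), with wild-type values from -0.84 to -0.28 and knockout-labelled values from -0.01 to 1.64. The other Wnt5b probe set was not called. Wnt4 was lower, with a difference of -0.68 ± 0.13 (adjusted p = 3.08e-05) that cyclic loess reduced to -0.141 (adjusted p = 0.371). The second Wnt4 probe set gave -0.27, and its call ended without wild-type array 3 (-0.243, adjusted p = 0.0674) or 5 (-0.259, adjusted p = 0.0539) or knockout-labelled array 3 (-0.216, adjusted p = 0.0626). Wnt2 was lower by 0.47 (-0.47 ± 0.13, adjusted p = 0.004), and without the arrays of high 18S signal the difference was -0.364 (adjusted p = 0.0574). Wnt11, which like Fzd2, Fzd7, Lgr4 and Lgr6 lies outside the rule for named genes and was added after its values were seen to complete the count, was higher by 0.44 and missed the threshold under cyclic loess (0.241, adjusted p = 0.0808).

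The Frizzled receptors split, with Fzd1, Fzd2, Fzd5, Fzd7 and Fzd8 higher and Fzd6, Fzd4 and Fzd9 lower. Fzd6, a receptor known from planar cell polarity, gave 2.92, 3.40, 3.34, 3.13 and 3.42 on the wild-type arrays (1448662_at). On the knockout-labelled arrays it ran from -0.61 over a median of -0.26 to 0.10. The gap between the groups was wider than the spread within either, and the difference was -3.49 ± 0.13, or 11.2-fold (adjusted p = 1.74e-21). A second probe set gave -4.17, and the other one, 1458904_at, gave 0.01 and was not called. Cyclic loess cut the Fzd6 differences to -0.285 (1448662_at) and -0.556 (the second), both still called.

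Fzd4, the receptor of the ligand Norrin in retinal blood vessels, gave 2.91, 2.97, 2.74, 2.22 and 2.64 on the wild-type arrays (1419301_at). On the knockout-labelled arrays it ran from -0.40 over -0.06 to 0.68, with no overlap. The difference was -2.71 ± 0.18, or 6.55-fold (adjusted p = 5.9e-15), and the other 2 probe sets gave -2.07 and -0.86. Cyclic loess turned the sign of Fzd4 (0.129, adjusted p = 0.583), but on centred values this step cannot decide its direction. No other alternative ended the call of 1419301_at. Fzd9 was lower by 0.80 (-0.80 ± 0.10, adjusted p = 4.26e-08).

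On the opposite side, Fzd1 gave -1.32, -1.36, -1.13, -2.03 and -1.90 on the wild-type arrays and ran from -0.08 over 0.39 to 0.52 on the knockout-labelled arrays. Its difference was 1.81 ± 0.17, or 3.50-fold (adjusted p = 6.12e-11), which cyclic loess reduced to 0.193 (adjusted p = 0.258). Fzd5 was higher by 0.74 ± 0.09 (adjusted p = 1.58e-08), with wild-type arrays from -0.42 to -0.14 and knockout-labelled arrays from 0.31 to 0.69. The other Fzd5 probe set, 1422937_at, was not called, and its correlation with the first over all arrays was 0.49. Fzd8 was higher by 0.76 (adjusted p = 1.41e-06), Fzd2 by 0.66 and Fzd7 by 0.61 in 1 of its 2 probe sets. Of the co-receptors, Lrp6 was higher by 0.81 ± 0.13 (adjusted p = 4.38e-06), its wild-type arrays lying between -0.47 and 0.08 and its knockout-labelled arrays between 0.38 and 0.84. Lrp5 was lower by 0.55 (-0.55 ± 0.19, adjusted p = 0.0189), but 1 knockout-labelled array stood at 1.24, above all 5 wild-type arrays, and the call ended without the arrays of high 18S signal (-0.467, adjusted p = 0.16).

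The R-spondins and Lgr receptors that were called were higher in the deposited values, with the sign of both R-spondins turned by cyclic loess. Rspo2, an R-spondin needed for limb and joint formation, gave -1.33, -1.14, -1.16, -2.27 and -2.25 on the wild-type arrays (1455893_at). On the knockout-labelled arrays it ran from 0.20 to 0.72, so the groups were apart. The difference was 2.15 ± 0.23, or 4.44-fold (adjusted p = 7.31e-10), while cyclic loess turned it to -0.357 (adjusted p = 0.0193). The other Rspo2 probe set gave 0.22 and was not called. Rspo3, an R-spondin known from vessel development, was higher by 1.31 ± 0.27 (adjusted p = 1.28e-04), with wild-type values from -2.00 to -0.74 and knockout-labelled values from -0.70 to 0.39, and its sign also turned under cyclic loess (-0.123, adjusted p = 0.756). The other Rspo3 probe set was not called. Of the Lgr receptors, Lgr4 and Lgr6 were higher, by 0.74 and 0.35, the first no longer called under cyclic loess (0.142, adjusted p = 0.698) and the second not without the arrays of high 18S signal (0.282, adjusted p = 0.0642). The other probe sets of Lgr4 and Lgr6 were not called. The stem cell marker Lgr5 differed by 0.16 ± 0.14 and was not called (adjusted p = 0.436).

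Secreted antagonists differed in both directions. Sfrp2 gave -1.61, -1.28, -1.09, -2.66 and -2.64 on the wild-type arrays and ran from -0.19 over 1.25 to 2.43 on the knockout-labelled arrays. The groups did not overlap, and the difference was 3.10 ± 0.56, or 8.59-fold (adjusted p = 2.22e-05; 2.43 under cyclic loess). Wif1, the Wnt inhibitory factor, gave -0.71, -0.76, -0.42, -1.26 and -1.14 on the wild-type arrays. On the knockout-labelled arrays it lay between -0.09 and 0.54 in culture set a and between 1.94 and 3.12 in set b. Its difference was 2.29 ± 0.70, or 4.87-fold (adjusted p = 0.00943), with 3.89 under cyclic loess, and without the arrays of high 18S signal it was 1.96 (adjusted p = 0.0741).

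All 5 called probe sets of Sfrp1 were higher, by 0.83 to 1.58. The one with the smallest adjusted p gave -0.07, -0.54, -0.33, -1.66 and -1.76 on the wild-type arrays and 0.17 to 0.87 on the knockout-labelled arrays, a difference of 1.41 ± 0.34 (adjusted p = 0.0011). The 5 Sfrp1 calls ended under cyclic loess (0.326 for this probe set, adjusted p = 0.491). Leaving out wild-type array 4 or 5 ended the Sfrp1 calls of 1460187_at (1.29 and 1.27, adjusted p = 0.0952 and 0.1) and 1416594_at (1.02 and 1.04, adjusted p = 0.161 and 0.156), and the latter also ended without wild-type array 1 or knockout-labelled array 1, 2, 5, 6 or 7 (1.12 to 1.30). Frzb, the antagonist also named Sfrp3, went the other way, with 2.07, 2.34, 2.35, 2.02 and 2.04 on the wild-type arrays. On the knockout-labelled arrays Frzb ran from -0.67 over -0.12 to 0.34. The difference was -2.25 ± 0.18, or 4.77-fold (adjusted p = 1.14e-12; -1.99 in the second probe set), and cyclic loess reduced it to -0.267 (adjusted p = 0.202).

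Of the Dickkopf genes, Dkk2 and Dkk3 were higher and Dkk1 and Dkk4 were not called. Dkk2, which binds Lrp5 and Lrp6, gave -0.05, -0.32, -0.52, -0.59 and -0.63 on the wild-type arrays and 0.46 to 2.12 on the knockout-labelled arrays, a difference of 1.68 ± 0.38 (3.21-fold, adjusted p = 4.93e-04; 2.34 under cyclic loess). Dkk3, a divergent member of the family, was higher by 0.78 ± 0.13 (adjusted p = 7.76e-06; 0.73 in its second probe set). Axin2, the feedback target of beta-catenin signalling, was higher by 0.82 ± 0.13 in one probe set (adjusted p = 2.57e-06), with wild-type arrays from -0.83 to -0.33 and knockout-labelled arrays from -0.12 to 0.75. Cyclic loess reduced it to 0.438, still called, and the second Axin2 probe set differed by 0.00 and was not called.

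**Figure D2:**
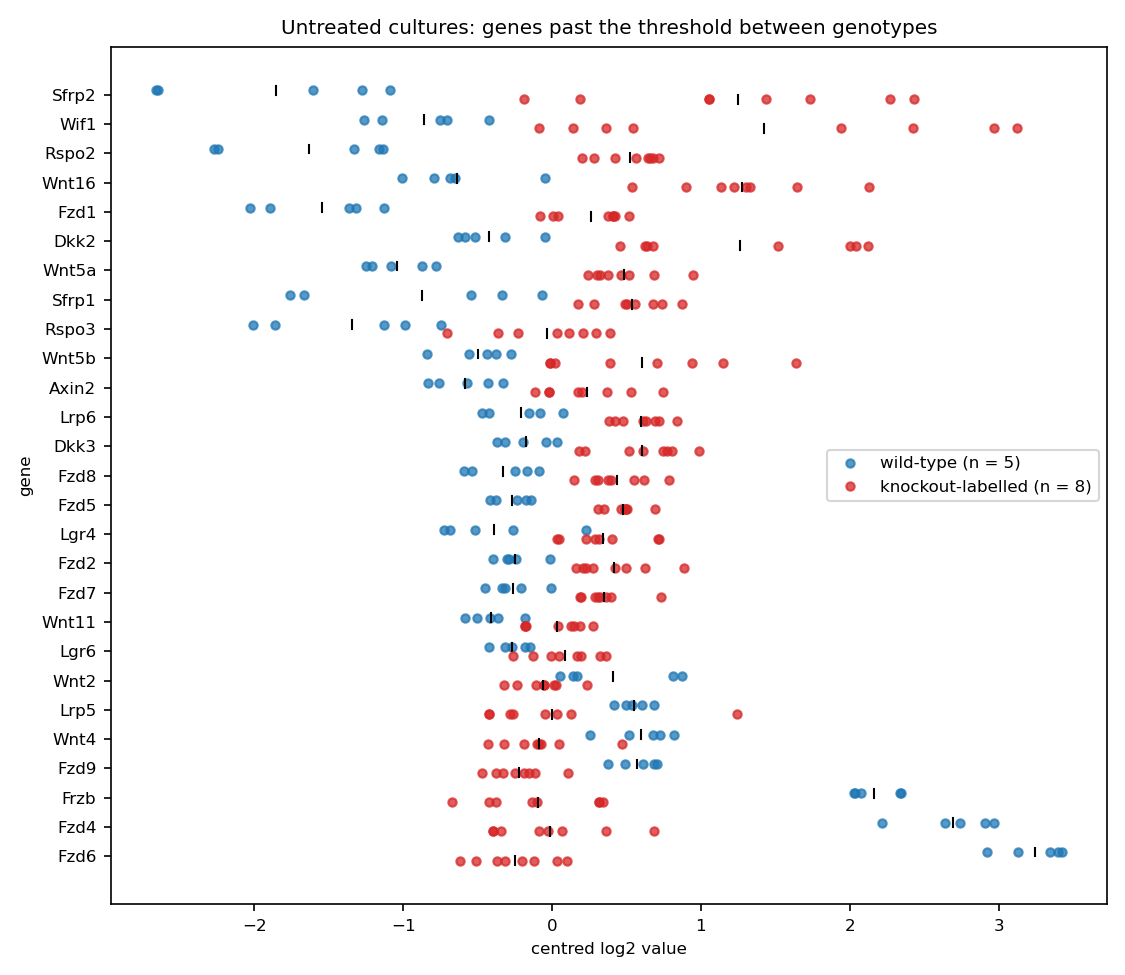
Centred log2 value of each untreated array for the 27 member genes called between the genotypes (rows, 1 probe set per gene; 5 wild-type and 8 knockout-labelled arrays as points, ticks at the group means). Fzd6, Fzd4 and Frzb lie to the right in wild-type arrays, and Sfrp2, Rspo2, Wnt16 and Fzd1 lie to the right in knockout-labelled arrays, with no overlap in any of these 7 (values as deposited, before the cyclic loess that turns Fzd4, Rspo2 and Rspo3 and shrinks Fzd6, Frzb and Fzd1).

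Beside these genotype differences stand the endothelial markers given above, among them the junction proteins Pecam1 (-6.20) and Cdh5 (-3.79 and -5.67 in its probe sets) and the capillary protein Plvap (-5.93), while Vwf was not called (-0.22, adjusted p = 0.147). Within the knockout-labelled arrays the endothelial list lay between -0.36 and 0.21 in set a and between -1.10 and -0.86 in set b, so set b was lower. Between the same sets (b minus a, with treatment as a term) the 3 probe sets of Fzd6 differed by -0.80 (1417301_at), -0.28 (1448662_at) and -0.02, those of Frzb by -0.56 and -0.45, and those of Fzd4 by -0.16, 0.03 and -0.01. The part of cell content in the genotype differences of Fzd6, Fzd4, Frzb and the other members was not tested.

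TNFa, the cytokine blocked in the treatment of rheumatoid arthritis, gave the most member calls of any treatment. In knockout-labelled cultures Dkk3, Wnt16, Wnt5a, Dkk2, Lrp6, Fzd5, Fzd8 and Fzd2 fell and Wnt6 and Wnt10a rose. In all, 21 of 93 member probe sets (22.6%) were called, 17 lower and 4 higher, for 11 genes lower and 3 higher, while 12.5% of all probe sets were called, 6.59% lower and 5.89% higher. The median difference of the members was -0.07, against 0.005 over all probe sets, and 5 of the 21 reached 2-fold. In 17 member probe sets the treated and untreated arrays did not overlap (8.38% of all probe sets did the same). Each of the 21 had the same sign within both culture sets, but these are the arrays that gave the calls, so this is no separate support.

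Dkk3 fell most clearly. It stood between 0.18 and 0.98 on the 8 untreated knockout-labelled arrays (median 0.68) and at -0.98, -0.90, -0.55 and -0.63 on the 4 with TNFa. The groups were apart, and the difference was -1.37 ± 0.14, or 2.58-fold lower (adjusted p = 3.11e-09), with -1.32 in culture set a and -1.41 in set b. Its second probe set gave -1.07 (adjusted p = 1.01e-06). Dkk2 fell by 1.48 (-1.48 ± 0.41, adjusted p = 0.0112), from 0.46 to 2.12 untreated to 0.09, 0.52, -0.90 and -0.60, values that overlapped by 1 array. Without TNFa array 3 the difference of Dkk2 was -1.26 (adjusted p = 0.0733).

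Ligands moved in both directions. Wnt16 went from 0.54 to 2.13 in untreated cultures (median 1.26) to -0.63, -0.71, -0.34 and -0.18 with TNFa. No treated array reached the lowest untreated one, and the difference was -1.74 ± 0.27, or 3.34-fold lower (adjusted p = 1.33e-05). Wnt5a (1437673_at) went from 0.16 to 1.25 (median 0.91) to -0.50, -0.48, 0.04 and -0.11, a fall of 1.10 (-1.10 ± 0.21, adjusted p = 2.02e-04). The other called Wnt5a probe sets gave -0.69 and -0.62, and the fourth, at 0.02, was not called.

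Wnt6 rose, from -0.34 to 0.17 in untreated cultures to 0.55, 1.09, 0.64 and 1.34 with TNFa. The groups did not overlap and the difference was 0.99 ± 0.13, or 1.99-fold (adjusted p = 9.55e-07; 0.92 in the second probe set). Wnt10a, a close genomic neighbour of Wnt6, rose by 0.52 ± 0.15 (adjusted p = 0.016), with 0.34, 0.29, 0.45 and 1.01 on the treated arrays and -0.27 to 0.19 on the untreated ones. Array 4 decided that call: without it the difference of Wnt10a was 0.352 (adjusted p = 0.14), and without the arrays of high 18S signal it was 0.406 (adjusted p = 0.112).

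The receptors with the smallest adjusted p fell. Fzd5 went from 0.31 to 0.69 untreated to -0.53, -0.23, -0.30 and -0.24, a difference of -0.80 ± 0.10 (adjusted p = 9.65e-08). Lrp6 went from 0.38 to 0.84 untreated to -0.69, -0.12, -0.37 and -0.17, a difference of -0.94 ± 0.14 (adjusted p = 6.22e-06) that its second probe set shared (-0.90). In both genes all 4 treated arrays lay under all 8 untreated ones. Fzd8 fell by 0.60 (adjusted p = 6.98e-04) and Fzd2 fell by 0.64 (adjusted p = 9.03e-04), the latter in all 3 of its probe sets, of which 2 lost the call without the arrays of high 18S signal (adjusted p = 0.0573 and 0.13). The other probe sets of Fzd5 and Fzd8 were not called.

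The remaining calls were less stable. Frzb fell by 0.67 (adjusted p = 0.0248), and the call ended without TNFa array 2 (adjusted p = 0.0513), 3 (0.0756) or 4 (0.121), with differences of -0.678, -0.637 and -0.534. Sfrp5 rose by 0.24 (adjusted p = 0.0339). The other probe sets of Frzb and Sfrp5 were not called. Fzd4 (-0.59, adjusted p = 0.0363) and Wnt2 (-0.42, adjusted p = 0.0407) lie outside the rule for named genes and complete the count, chosen after their values were seen. The other Fzd4 probe sets were not called. The Fzd4 call ended without untreated array 1, 2 or 5 or TNFa array 2, 3 or 4 (differences from -0.618 to -0.488, adjusted p up to 0.148). The Wnt2 call ended without untreated array 1, 2, 3, 4 or 7 or TNFa array 2, 3 or 4 (-0.441 to -0.381, adjusted p up to 0.133). The Sfrp5 call ended without untreated array 4, 5, 6 or 7 or TNFa array 1, 2 or 3 (0.184 to 0.243, adjusted p up to 0.188). Of the genes named in every comparison, Wnt5b (-0.77, adjusted p = 0.084), Rspo2 (-0.49, adjusted p = 0.212), Fzd1 (0.41, adjusted p = 0.161), Sfrp1 (-0.49, adjusted p = 0.474), Sfrp2 (-0.57, adjusted p = 0.644), Axin2 (-0.18, adjusted p = 0.485), Rspo3 (0.19, adjusted p = 0.495) and Lgr5 (-0.16, adjusted p = 0.6) were not called.

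In wild-type cultures, where TNFa had 2 arrays, 3 member probe sets of 2 genes were called, all lower, against 2.07% of all probe sets (0.978% lower). The median member difference was -0.10, against 0.001 over all. Dkk3 went from 0.04, -0.20, -0.04, -0.37 and -0.32 untreated to -0.92 and -1.12, a difference of -0.85 ± 0.19 (adjusted p = 0.0081; -0.82 and adjusted p = 0.0165 in the second probe set). Without TNFa array 2 the Dkk3 probe sets gave -0.745 (adjusted p = 0.279) and -0.585 (adjusted p = 0.684), and without the arrays of high 18S signal, of which that array is 1, they gave -0.78 (adjusted p = 0.285) and -0.652 (adjusted p = 0.588). Fzd6 (1448662_at) went from 2.92, 3.40, 3.34, 3.13 and 3.42 to 2.25 and 1.96, a fall of 1.14 (-1.14 ± 0.19, adjusted p = 2.24e-04). Its second probe set gave -0.96 and was not called (adjusted p = 0.196), the remaining one gave 0.18, and without the arrays of high 18S signal 1448662_at gave -0.945 (adjusted p = 0.188). Quantile normalization, tried after the values had been seen, ended both calls (Dkk3 -0.548, Fzd6 -0.579).

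The untreated arrays of the genotypes are separate. How many of all probe sets called in knockout-labelled cultures kept their sign was not counted, so such agreement is not shown to be particular to the members. The 21 member probe sets called in knockout-labelled cultures, of 14 genes, all had the same sign in wild-type cultures. Of the genes not called there, Frzb differed by -0.67 (adjusted p = 0.384), as far as in knockout-labelled cultures, while smaller wild-type differences were found for Wnt16 -0.60 (adjusted p = 0.801), Fzd5 -0.24 (adjusted p = 0.679), Lrp6 -0.26 (adjusted p = 0.888), Wnt5a -0.25 in its probe set with the smallest p (adjusted p = 0.852), Dkk2 -0.76 (adjusted p = 0.886) and Wnt6 0.01. In Wnt16 both treated wild-type arrays, at -1.17 and -1.29, still lay below all 5 untreated ones. In Wnt6 the treated wild-type arrays, at -0.19 and 0.01, overlapped the untreated ones, which ran from -0.18 to 0.08.

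**Figure D3:**
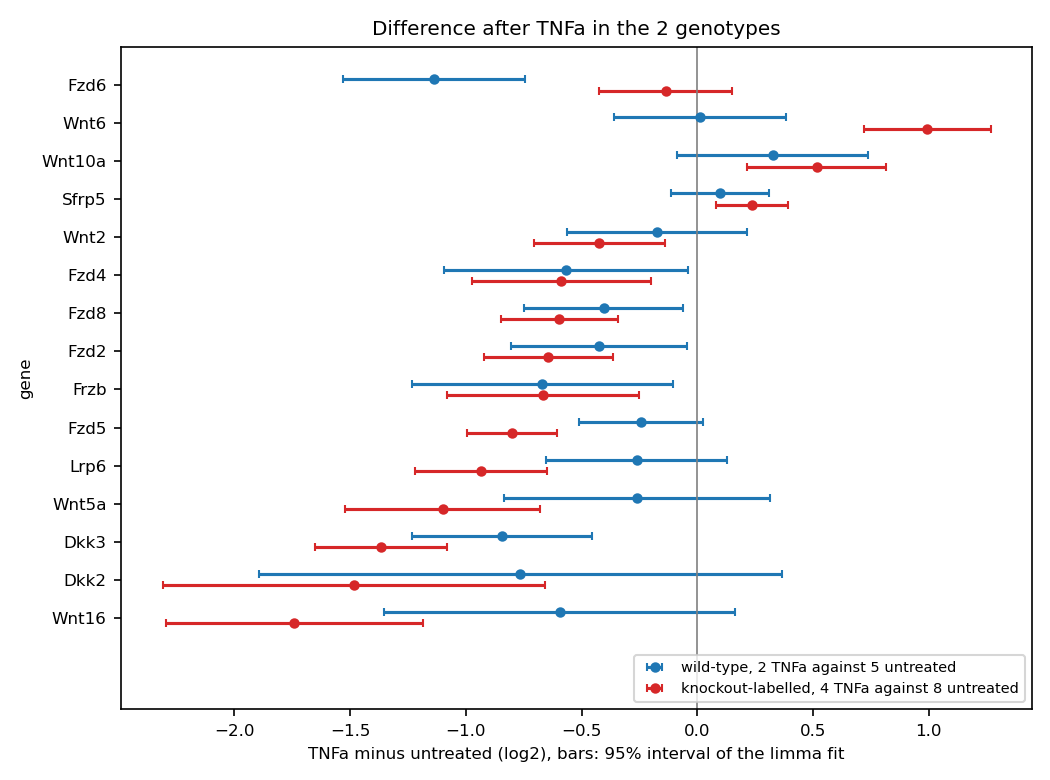
Difference between TNFa-treated and untreated cultures on the log2 scale, with its 95% interval from limma, in wild-type (2 against 5 arrays) and knockout-labelled cultures (4 against 8 arrays) for the 14 genes called in knockout-labelled cultures and for Fzd6. Dkk3 lies well below 0 in both genotypes, Fzd6 only in wild-type cultures, and Wnt6 lies above 0 only in knockout-labelled cultures.

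Whether the genotypes responded differently to TNFa was tested directly. Of the members, 2 probe sets passed (0.601% of all probe sets did, 0.398% in this direction), both with a response more positive in the knockout-labelled cultures. The response of Wnt6 was higher by 0.98 ± 0.23 (adjusted p = 0.0297) and that of Fzd6 by 1.00 ± 0.24 (adjusted p = 0.0365). The other probe sets of both genes did not pass. Both calls lay near the threshold and ended on leaving out any of several single arrays. For Wnt6 the adjusted p was 0.0582 without wild-type untreated array 4, 0.192 and 0.137 without wild-type TNFa array 1 or 2, and 0.0722 and 0.0874 without knockout-labelled TNFa array 2 or 4, with differences from 0.839 to 1.08. For Fzd6 the call ended without wild-type untreated array 2, 3 or 5, wild-type TNFa array 1 or 2, knockout-labelled untreated array 5, 7 or 8, or knockout-labelled TNFa array 1 or 2 (differences from 0.854 to 1.15, adjusted p from 0.0513 to 0.507). Without the arrays of high 18S signal neither passed (adjusted p = 0.187 for Wnt6 and 0.469 for Fzd6). The responses of Wnt16 (difference -1.15, adjusted p = 0.525), Dkk3 (-0.52, adjusted p = 0.67), Wnt5a (-0.84, adjusted p = 0.57) and Lrp6 (-0.67, adjusted p = 0.333) were not shown to differ.

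LPS, a bacterial cell wall component sensed by a Toll-like receptor, gave few member calls. In knockout-labelled cultures 2 member probe sets were called, both of Dkk3 and both lower (1.38% of all probe sets were called, 0.687% lower). Dkk3 stood at -0.27, -0.33, 0.07 and 0.25 on the LPS arrays, of which 3 lay below all the untreated arrays (0.18 to 0.98) and 1 among them. The difference was -0.67 ± 0.14 (adjusted p = 0.00539), with -0.68 in culture set a and -0.67 in set b. Without LPS array 1 it was -0.607 (adjusted p = 0.0516), and without the arrays of high 18S signal -0.605 (adjusted p = 0.248). The second probe set of Dkk3 gave -0.55, and its call ended without untreated array 3, 5, 6, 7 or 8 or LPS array 1 or 2 (-0.562 to -0.439, adjusted p from 0.055 to 0.249).

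In wild-type cultures LPS gave 1 member call, of Fzd5, which was lower (0.938% of all probe sets were called, 0.389% lower). Fzd5 went from -0.14, -0.17, -0.23, -0.42 and -0.38 untreated to -0.67 and -0.91, without overlap, a difference of -0.52 ± 0.13 (adjusted p = 0.0437). The other Fzd5 probe set was not called. The call of Fzd5 ended without any 1 of untreated arrays 1, 2 and 3 (differences -0.484, -0.492 and -0.507) or LPS arrays 1 and 2 (-0.636 and -0.396), with adjusted p between 0.082 and 0.894. In knockout-labelled cultures Fzd5 differed by -0.33 (adjusted p = 0.0798) with LPS. Dkk3 in wild-type cultures stood at -0.56 and -0.76, both below the 5 untreated arrays, but its difference of -0.48 was not called (adjusted p = 0.537). No member response to LPS differed between the genotypes in limma (0 calls, against 0.123% of all probe sets). With the culture set as a block, 1 was called.

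TSG-6 and HA were given alone and together. Rspo2 fell in wild-type cultures with TSG-6 and with TSG-6 and HA, and Lrp6 and Wnt16 fell in knockout-labelled cultures with both. With TSG-6, Rspo2 was the only member probe set called (0.283% of all probe sets were, 0.1% lower). It stood at -2.69 and -3.63, below the untreated arrays at -1.33, -1.14, -1.16, -2.27 and -2.25. The difference was -1.53 ± 0.33, or 2.89-fold lower (adjusted p = 0.025), with -1.48 in culture set a and -1.38 in set b. The call ended without untreated array 1, 2 or 3 (-1.46, -1.41 and -1.42, adjusted p = 0.065, 0.0771 and 0.0662) and without TSG-6 array 1 (-2.01, adjusted p = 0.0541) or 2 (-1.06, adjusted p = 1).

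With TSG-6 and HA together, Rspo2 was again the only member probe set called in wild-type cultures (0.584% of all were, 0.318% lower). It stood at -2.44 and -3.68, a difference of -1.43 ± 0.33, or 2.70-fold lower (adjusted p = 0.0265). The call ended without untreated array 1, 2 or 3 (-1.36, -1.31 and -1.31, adjusted p = 0.069, 0.0795 and 0.0715), without treated array 2 (-0.807, adjusted p = 1) and without the arrays of high 18S signal (-0.962, adjusted p = 0.724). With HA alone Rspo2 stood at -1.40 and -2.60, a difference of -0.37 that was not called (adjusted p = 1). Its second probe set was called in none of these comparisons.

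In knockout-labelled cultures Rspo2 was not called with TSG-6 (-0.54 ± 0.27, adjusted p = 0.333) or with TSG-6 and HA (-0.48, adjusted p = 0.254). Its responses were not shown to differ between the genotypes (0.99 ± 0.42 for TSG-6, adjusted p = 1, and 0.95 ± 0.41 for the combination, adjusted p = 0.662).

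Knockout-labelled cultures with TSG-6 and HA gave 2 member calls, Lrp6 and Wnt16, both lower, against 8.6% of all probe sets called (5.53% lower). Lrp6 stood at -0.08, -0.05, 0.28 and 0.18, below the untreated arrays at 0.38 to 0.84, and fell by 0.51 (-0.51 ± 0.14, adjusted p = 0.0155), while its other probe set was not called. Without treated array 1 or 2 the Lrp6 difference was -0.46 (adjusted p = 0.0826) or -0.469 (adjusted p = 0.0679), and without the arrays of high 18S signal -0.478 (adjusted p = 0.0934). Wnt16 stood at 0.01, 0.28, -0.01 and 1.22, the last among the untreated arrays at 0.54 to 2.13, and fell by 0.90 (-0.90 ± 0.27, adjusted p = 0.0321). The Wnt16 call ended without untreated array 2 (-0.78, adjusted p = 0.063) or 6 (-0.849, adjusted p = 0.0549) and without treated array 1 (-0.78, adjusted p = 0.146), 2 (-0.869, adjusted p = 0.092) or 3 (-0.775, adjusted p = 0.134).

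The other combinations gave no member call in limma without a block. These were TSG-6 alone (4.38% of all probe sets called) and HA (0.4%) in knockout-labelled cultures, and HA in wild-type cultures (0.0887%). With TSG-6 alone, Wnt16 (-0.89, adjusted p = 0.0929) and Lrp6 (-0.47, adjusted p = 0.0842) had differences near those of the combination. No member response to TSG-6 (0.0286% of all probe sets called), HA (0.0114%) or both (0.109%) differed between the genotypes in that fit. With the culture set as a block these counts of 0 became 4 for TSG-6 and 4 for HA in knockout-labelled cultures, all lower, and 1 each for the responses to TSG-6 and to TSG-6 with HA, while HA in wild-type cultures and the response to HA stayed at 0.

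**Figure D4:**
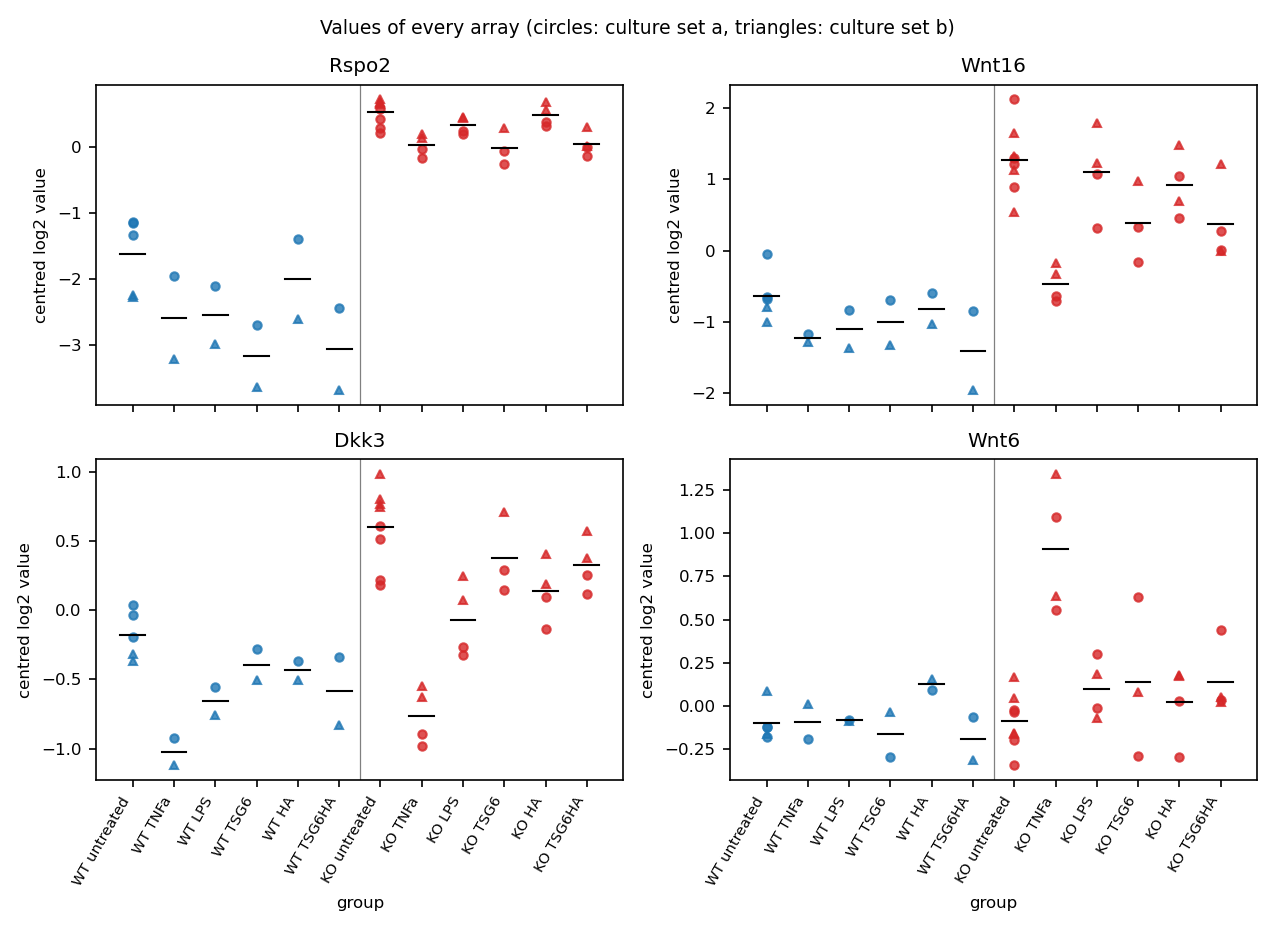
Centred log2 value on each of the 42 arrays for Rspo2, Wnt16, Dkk3 and Wnt6 over the 12 groups (circles, culture set a; triangles, set b; bars, group means). Rspo2 is lowest in the wild-type TSG-6 and TSG-6 with HA groups, Dkk3 is lowest in the TNFa groups of both genotypes, and Wnt6 is highest in the knockout-labelled TNFa group.

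The genes around the members, from lists of the rest of the pathway, were counted in the same fits, by gene, where any called probe set counted. The shares of all probe sets called are the background given above (in knockout-labelled cultures 6.59% lower and 5.89% higher with TNFa, 5.53% lower with TSG-6 and HA, and between untreated genotypes 17.9% higher and 15.8% lower). Those shares are by probe set. Genes with several probe sets are called more easily, so the units are unlike. For Wnt secretion and transport, 7 genes were measured. Wls, which carries Wnt proteins to the cell surface, fell with TNFa in both genotypes. It fell by 0.60 in knockout-labelled (-0.60 ± 0.07, adjusted p = 4.42e-08 in limma) and by 0.48 in wild-type cultures (-0.48 ± 0.09, adjusted p = 0.00142). The wild-type call ended without TNFa array 2 (-0.356). Wls was also called lower in knockout-labelled cultures with LPS (-0.348), TSG-6 (-0.258) and TSG-6 with HA (-0.271). Each of those calls ended under some alternatives. Between untreated genotypes 3 of the 7 were higher, among them Porcn, which attaches the lipid to Wnt proteins (1.31, reduced to 0.25 by cyclic loess, adjusted p = 0.219) and Gpc4 (0.94, turned to -0.576 by cyclic loess), and 2 lower, Cthrc1 (-2.11, reduced to -0.08, adjusted p = 0.829) and Apcdd1 (-1.10, reduced to -0.161, adjusted p = 0.381).

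Of 12 polarity genes, Daam2, a formin that acts with Dishevelled, was lower in knockout-labelled cultures under all 5 treatments. The differences of Daam2 were -1.25 with TNFa, -0.94 with LPS, -1.24 with TSG-6, -0.80 with HA and -1.14 with both (adjusted p between 5.34e-09 and 0.00091 in limma). No alternative ended these 5 calls, which share the 8 untreated arrays. Those untreated arrays stood 1.09 above the untreated wild-type arrays for Daam2. In the smaller wild-type groups no treatment gave a call of Daam2. Of 13 nuclear genes, 5 fell with TNFa in knockout-labelled cultures, namely the TCF factors Tcf7l1 and Tcf7l2 and the corepressors Tle1, Tle2 and Tle3, and these 5 also fell with TSG-6 and HA against the shared untreated arrays. Tcf7l1 fell by 0.68 with TNFa (adjusted p = 5.63e-04) and by 0.63 with the combination (adjusted p = 0.00238). Of 23 cytoplasmic genes, 5 fell with TNFa in knockout-labelled cultures (Apc, Tnks, Nkd1, Dact1 and Dact3) and none rose. Single arrays decided some of these calls. Without TNFa array 3 Apc gave -0.387 (adjusted p = 0.132), without TNFa array 1 Tnks gave -0.229 (adjusted p = 0.111) and Tle2 -0.585 (adjusted p = 0.0544), and with the combination Tcf7l2 gave -0.382 (adjusted p = 0.0684) without array 2 and Tle2 -0.504 (adjusted p = 0.133) without array 1. Dact1 (-1.02, adjusted p = 0.0696), Dact3 (-0.267, adjusted p = 0.177) and Tle2 (-0.69, adjusted p = 0.123) were not called with TNFa without the arrays of high 18S signal.

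Target genes showed no common direction with TNFa in knockout-labelled cultures, while between untreated genotypes more of them were called lower than higher. Of 15 measured, 3 rose (Ccnd1, Myc and Cd44) and 4 fell (Nkd1, Ccn5, Bmp4 and Fgf18) with TNFa in knockout-labelled cultures. Cd44, the hyaluronan receptor, rose by 1.20 ± 0.10 (adjusted p = 8.05e-12 in limma) there and by 0.91 ± 0.13 in wild-type cultures (adjusted p = 1.48e-05). In knockout-labelled cultures Cd44 was also called higher with LPS (0.408), TSG-6 (0.445) and TSG-6 with HA (0.437). Its calls with LPS and TSG-6 ended under some alternatives. Fgf18 was also called lower in wild-type cultures with TNFa (-1.45), LPS (-1.25), TSG-6 (-1.11) and TSG-6 with HA (-0.97), each ended by some alternatives. Bmp4 fell by 2.00 (-2.00 ± 0.21, adjusted p = 7.72e-09) in knockout-labelled cultures. In untreated cultures 8 of the 15 were lower in the knockout-labelled group, among them Bmp4 (-2.38, cut to -0.693 by cyclic loess), Ccn4 (-1.93, cut to -0.876) and Sp5 (-1.37, cut to -0.605), each still called. Counted by probe set and not by gene, 15.8% of all probe sets were lower. Among the 15, 2 were higher (Nkd1 and Znrf3, the latter no longer called without any 1 of 7 arrays, wild-type 1, 2, 4 and 5 and knockout-labelled 3, 5 and 6, at 0.319 to 0.373), while Axin2, a target itself, was higher in 1 of 2 probe sets.

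Secreted antagonists were among the members that separated the culture sets within a genotype. These sets were found from probe sets whose values leave 1 log2 unit or more empty between a pair of clusters, and the members are part of that evidence: 3 Sfrp1 probe sets are among the 33 of 44 such probe sets that split the wild-type arrays one way, and Wif1 is among the 12 of 15 that split the knockout-labelled arrays. The values are therefore descriptions with no test. In wild-type arrays Sfrp1 (1460187_at) lay between -0.58 and -0.08 in set a (median -0.34) and between -3.38 and -2.19 in set b (median -2.79). Sfrp2 lay between -1.71 and -1.02 in set a and between -3.69 and -2.64 in set b. Rspo3, Rspo2 and Wif1 were also lower in wild-type set b, with differences of -1.18, -1.09 and -1.02 between the sets when treatment was a term.

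In knockout-labelled arrays the order of the sets was the reverse for Wif1, which lay between -0.87 and 0.54 in set a (median 0.10) and between 1.88 and 3.12 in set b (median 2.63). By the same measure Sfrp2 was higher in set b by 1.48, and Dkk2 was lower, at -1.41, with set a between 0.09 and 2.24 and set b between -1.17 and 0.68. The ligand Wnt5b was higher in set b by 0.92 and 0.45 in its probe sets. The letters were given separately in each genotype, so set b of one is not set b of the other. The 2 wild-type arrays of each treatment are divided between the sets, 1 in each.

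**Figure D5:**
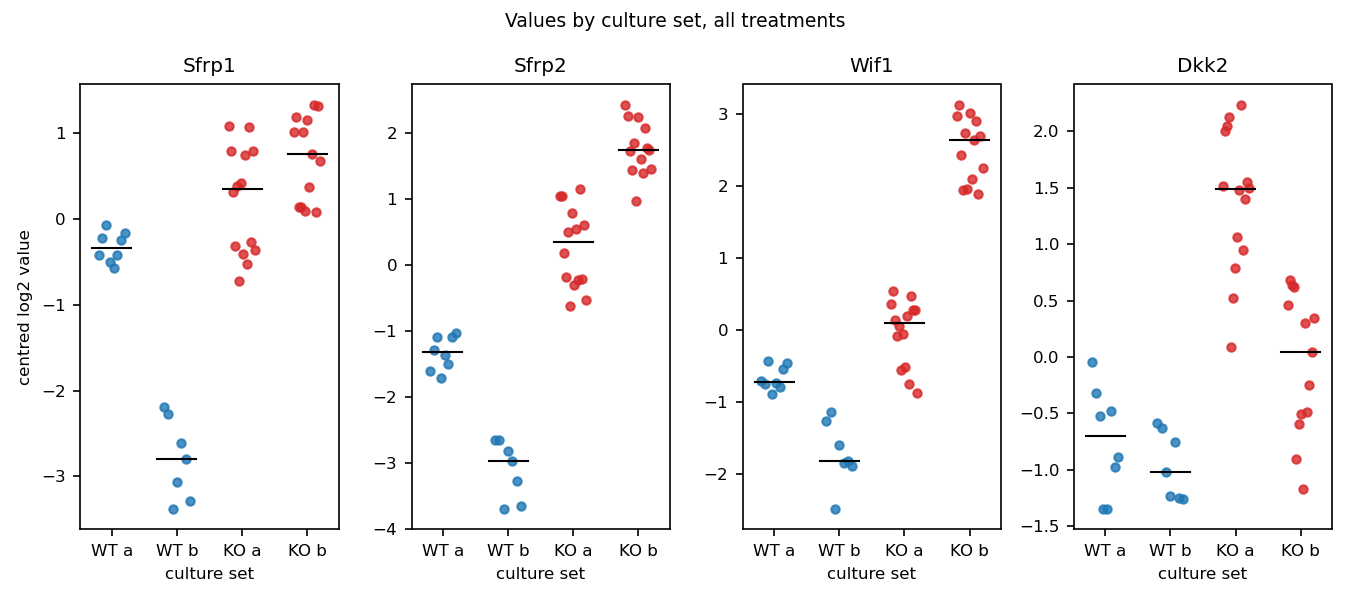
Centred log2 values of Sfrp1, Sfrp2, Wif1 and Dkk2 on all arrays by genotype and culture set (8 and 7 wild-type, 14 and 13 knockout-labelled arrays; each point 1 array, lines at the medians). Sfrp1 and Sfrp2 are lower in wild-type set b, Wif1 and Sfrp2 are higher in knockout-labelled set b, and Dkk2 is lower in knockout-labelled set b.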

How the data were processed

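RNA of 42 cultures was measured on 42 one-colour Affymetrix arrays. Values were deposited by the authors as log2 values after RMA (robust multi-array average), per the submitters' processing notes, which give no version. In the table each probe set has a median of 0 over the arrays, a step the sources used here do not describe, so levels cannot be compared between genes. That the logarithm is to base 2 is an inference from the widest spread of any probe set, 9.81, and higher values were read as more RNA.

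Groups came from the labels. Probe sets listed with several genes (932) or none (9211) in the platform annotation were left out. A fit of 12 group means over all 42 arrays was made with limma 3.58.1 in R 4.3.3 (lmFit and eBayes, residual df 30, prior df 4.41), with Benjamini-Hochberg adjustment within a comparison, a threshold of 0.05, and no block, and was tested on simulated data. The number of arrays limits the precision.

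In each comparison the text names up to 8 called members each way by smallest adjusted p (4 for response differences), a fixed set of 12 genes, and the 6 widest probe sets. A gene is described by its probe set with the smallest adjusted p. Members and lists were chosen with earlier results of these data known. Alternatives were another normalization, a block, fewer arrays, and 1 probe set per gene.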

Additional observations from a re-analysis of the deposited data

Results flagged for a closer look

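For the named member genes, 186 combinations of a probe set and a group of 4 to 10 arrays were examined. Of these, 6 (3.23%) held an array far from the rest, where chance gives about 1 in 20. The combinations share arrays and are not independent. Fzd7 stood at 0.73 on knockout-labelled untreated array 3, against 0.19 to 0.39 on the other arrays of that group. Lrp5 stood at 1.24 on the same array, against -0.42 to 0.13. Fzd9 stood at 0.15 on knockout-labelled TSG-6 with HA array 1, against -0.23 to -0.21. Lgr4 stood at 0.91 on knockout-labelled HA array 4, against -0.01 to 0.10. Wnt6 stood at 0.08 on wild-type untreated array 4, against -0.18 to -0.12, and at 0.44 on knockout-labelled TSG-6 with HA array 2, against 0.02 to 0.05. The arrays of Fzd9, Lgr4 and the second Wnt6 value lie in groups where those genes were not called.

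The TNFa response differed between the genotypes for Fzd6 by 1.00 (adjusted p = 0.0365 in limma) and for Wnt6 by 0.98 (adjusted p = 0.0297). The 2 responses were -1.14 in wild-type and -0.14 in knockout-labelled cultures for Fzd6, and 0.01 and 0.99 for Wnt6.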

How the results depend on the processing

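Over the called member probe sets, leaving out 1 array at a time kept direction and call in 867 cases and ended the call in 85, and the other settings kept 549, ended 62 and reversed 4. For the other pathway lists, up to 4 called genes per list and comparison, those with the smallest adjusted p, gave 1260, 189 and 3. Other calls of those lists were not followed. All reversals came from cyclic loess between untreated genotypes: Fzd4 (0.129 and 0.013), Rspo2 (-0.357), Rspo3 (-0.123), Gpc4 (-0.576), Dact3 (-0.091) and Prickle2 (-0.202). Cyclic loess was run on centred values, so it cannot decide these directions, and the cause was not tested. Counts of called member probe sets moved as follows. Cyclic loess gave 29 for the untreated genotypes (44 in the report), 2 for wild-type LPS, 1 for the TNFa response difference and 1 for that of TSG-6 with HA. Quantile normalization, chosen after seeing the data, gave 0 for wild-type TNFa and LPS, 5 for knockout-labelled LPS, 4 for TSG-6, 5 for TSG-6 with HA and 4 for the TNFa response difference. Using 1 probe set per gene gave 26 for the untreated genotypes, 11 for knockout-labelled TNFa, and 1 each for wild-type TNFa, knockout-labelled LPS and the TNFa response difference, with fewer probe sets tested. Without the arrays of high 18S signal there was 1 call for wild-type TNFa, 1 for knockout-labelled TSG-6 with HA, and 0 for LPS in both genotypes, wild-type TSG-6 with HA and the TNFa response difference. Fitting only the groups compared gave 0 for wild-type TSG-6, wild-type TSG-6 with HA and knockout-labelled LPS, and 1 for knockout-labelled TSG-6. The culture set as a block gave 9, 6 and 3 for wild-type TNFa, LPS and TSG-6 with HA, 5, 4, 4 and 6 for knockout-labelled LPS, TSG-6, HA and TSG-6 with HA, 7 for the TNFa response difference and 1 each for those of LPS, TSG-6 and TSG-6 with HA. Leaving out 1 array gave 1 to 5 calls for wild-type TNFa, 0 to 1 for LPS and TSG-6, 0 for HA and 0 to 3 for TSG-6 with HA. In knockout-labelled cultures it gave 17 to 22 for TNFa, 0 to 2 for LPS and TSG-6, 0 for HA and 0 to 3 for TSG-6 with HA. It gave 43 to 46 for the untreated genotypes, 0 to 2 for the TNFa response difference and 0 for the others. Where an arm was left with 1 array, that array was assumed to vary like the other groups. Signal over background is unknown from centred values.

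Replicate numbers do not pair the arrays: same-numbered arrays deviated together (r above 0.1) in 5 of 10 wild-type pairs (-0.619 to 0.433) and 7 of 19 knockout-labelled pairs (-0.247 to 0.568). With the replicate number as a block the calls were 10, 7, 2 and 5 for wild-type TNFa, LPS, TSG-6 and TSG-6 with HA, 10, 4, 5 and 11 for knockout-labelled LPS, TSG-6, HA and TSG-6 with HA, 0 for the TNFa response difference, and 2 each for those of TSG-6 and TSG-6 with HA. The block could not be fitted for the untreated genotypes.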
